A study of Mus musculus with 8 samples.

Results

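Adipose-derived stem cells of epididymal white fat (EWAT), the pad attached to the epididymis, were compared with those of perirenal white fat (NWAT), the pad around the kidney. The libraries were taken by the depot letter and replicate number in the column names, which gave 2 EWAT and 2 NWAT libraries among the 6 libraries analysed of 8 labelled samples, and all genes were included. The 2 mesenteric samples (MWAT) were not analysed here. Of 17967 gene symbols listed, 13694 had enough reads to be tested. Both groups came from male wild-type C57BL/6J mice fed chow, the labels name no treatment, and an age is not given in the sources used here. The fat was digested with collagenase, red blood cells were lysed, and the stem cells were stained with fluorescent antibodies, of which no target is named in the sources used here. RNA was sequenced in bulk. Subcutaneous fat (SWAT), also 2 libraries, was handled the same way and entered the fit to help estimate the spread between replicates. Its reads also counted when genes were judged to have enough reads to be tested. No source says that the replicates are separate animals, so p-values measure the spread between these libraries, which may be technical.

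Adipose-derived stem cells are fibroblast-like cells of the fat stroma that can become adipocytes, and they keep a record of where they sit in the body in the form of patterning genes such as the Hox clusters. They also shape the tissue around them, by depositing matrix, by secreting growth factors, chemokines and complement, and by answering interferons. Epididymal fat lies in the peritoneal cavity beside the gonad, whereas perirenal fat lies behind the peritoneum. In mouse fat, single-cell studies by others have described a Dpp4-expressing interstitial progenitor, an Icam1-expressing committed preadipocyte and an F3-expressing regulatory cell, and bulk libraries mix them.

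The EWAT and NWAT libraries held 20026413 to 20583224 estimated read counts, and levels are given as CPM, counts scaled to a common library size with TMM factors. The labelled cell type was checked against general mesenchymal markers. Pdgfra, the platelet-derived growth factor receptor that marks fat progenitors, had 1165 and 936 CPM in EWAT, against 1420.1 and 1443 CPM in NWAT. The endothelial marker Pecam1 had 5.18 and 8.63 CPM in EWAT, against 3.96 and 4.12 CPM in NWAT. Over all tested genes, log2 CPM correlated at 0.988 between the EWAT libraries, at 0.990 between the NWAT libraries and at 0.950 to 0.960 between depots. The second NWAT library held more blood RNA than the others, and the summed level of the erythroid markers was 9.25 and 17.0 CPM in EWAT, against 7.44 and 218 CPM in NWAT. None of the 4 tested haemoglobin genes passed the test; when NWAT replicate 1 was left out, all 4 were lower in EWAT.

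Gene expression differed widely between the depots. At a Benjamini-Hochberg adjusted p under 0.05 in edgeR's quasi-likelihood test, the threshold for every call, 3743 genes differed, which is 27.3% of those tested. Of these, 1826 were higher in EWAT (13.3% of tested genes) and 1917 were lower in EWAT (14%). The member counts given below for gene lists are to be read beside these shares. The split between directions differed between ways of processing. In edgeR on the counts, 48.8% of the calls were higher, and 48.4% with DESeq2 size factors in place of TMM. In limma on log2 (FPKM + 1) values it was 58.1%, and 58.9% on those values with a mean FPKM of at least 1. The FPKM runs changed the input and the test together, and the cause of the shift was not tested. The median log2 fold change, EWAT over NWAT, was 0.011 over all tested genes, and the median size among called genes was 0.69. Values in brackets after a gene, and rises or falls given with an SE, are this log2 fold change and its SE. At least a 2-fold difference was found for 627 higher and 639 lower genes, and at least an 8-fold difference for 87 and 95. The number of calls fell to 2487 without EWAT replicate 2, 2140 without NWAT replicate 1 and 2289 without NWAT replicate 2, and it was 4890 without EWAT replicate 1.

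**Figure D1:**
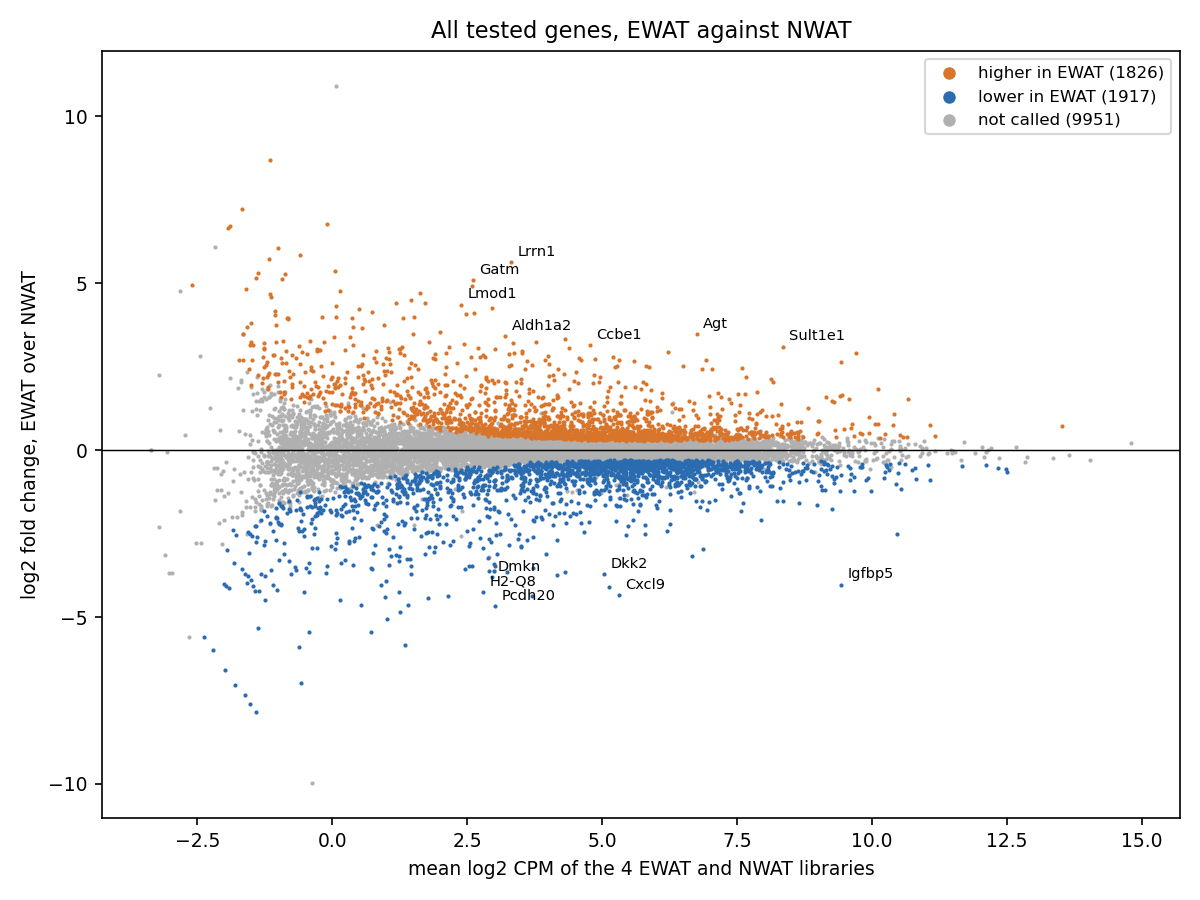
Log2 fold change of EWAT over NWAT (vertical axis) against the mean log2 CPM of the 4 libraries (horizontal axis) for 13694 genes. Of these, 1826 genes higher in EWAT are drawn in orange, 1917 lower in blue and the rest in grey, and named genes are labelled where space allows.

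Among well-expressed genes with the largest rise in EWAT were several of muscle-like, secretory and membrane function. Gatm, the enzyme of the first step of creatine synthesis, had 31.9 and 39.3 CPM in EWAT, against 1.48 and 0.582 CPM in NWAT, a log2 fold change of 5.10 ± 0.30 (SE; edgeR adjusted p = 1.94e-06). Dok7, an adaptor of the muscle kinase MuSK at the neuromuscular synapse, had 24.1 and 19.9 CPM in EWAT, against 1.34 and 1.26 CPM in NWAT, with a log2 fold change of 4.08 ± 0.22 (SE; edgeR adjusted p = 2.13e-07). Both EWAT libraries lay above both NWAT libraries in each, which the rule for naming these genes required. Ramp1, the accessory subunit of the receptor for calcitonin gene-related peptide, had 13.3 and 19.01 CPM in EWAT, against 2.10 and 1.46 CPM in NWAT (3.18 ± 0.30). Megf10, an engulfment receptor, had 32.8 and 28.8 CPM in EWAT, against 3.24 and 3.40 CPM in NWAT (3.21 ± 0.15). The others of the 14 genes shown with the largest rise were Lrrn1 (5.63), the PAQR-family membrane protein gene Mmd2 (4.91), Lmod1, Myh11, Agt, Aldh1a2, Fmod, Egflam, Ccbe1 and Sult1e1, most of which recur with their gene groups. On GRCm38.p6 the protein-coding genes Gatm (chromosome 2, 122594473 to 122611277) and Dok7 (chromosome 5, 35056571 to 35087839) are annotated at these positions, which span exons and introns. Of the log2 fold changes, that of Gatm was 5.92 without NWAT replicate 1.

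The 15 genes with the largest fall in EWAT were led by a protocadherin and by secreted and cell surface proteins. Pcdh20, a protocadherin of cell adhesion, had 1.68 and 1.44 CPM in EWAT, against 41.3 and 38.0 CPM in NWAT, a log2 fold change of -4.66 ± 0.17 (SE; edgeR adjusted p = 3.88e-08). Myoc, the secreted protein myocilin known from the outflow tract of the eye, had 2.38 and 3.28 CPM in EWAT, against 56.2 and 61.8 CPM in NWAT, with a log2 fold change of -4.37 ± 0.18 (SE; edgeR adjusted p = 6.03e-08). Mme, the cell surface peptidase neprilysin, also called CD10, had 6.16 and 4.99 CPM in EWAT, against 63.4 and 75.6 CPM in NWAT (-3.64 ± 0.16). Here too the naming rule required both EWAT libraries to lie below both NWAT libraries. Piezo2, a mechanically gated cation channel, had 2.10 and 1.08 CPM in EWAT, against 19.8 and 18.1 CPM in NWAT (-3.57 ± 0.24), and here SWAT stood at the EWAT level with 1.70 and 1.48 CPM. Dmkn, the epidermal secreted protein dermokine, had 1.401 and 2.74 CPM in EWAT, against 33.0 and 25.7 CPM in NWAT (-3.81 ± 0.31). The others were Mrgprg (-4.38), a Mas-related receptor gene, H2-Q8 (-4.25), a class Ib histocompatibility gene with near-identical neighbours that may share its reads, Cxcl9, Cxcl13, Igfbp5, Mmp3, Dkk2, Il1r2, Cyp26b1 and Hoxc10. On GRCm38.p6 the protein-coding genes Pcdh20 (chromosome 14, 88464743 to 88471396), Myoc (chromosome 1, 162639150 to 162649694), Mme (chromosome 3, 63295211 to 63383713) and Piezo2 (chromosome 18, 63010213 to 63387716) are annotated at these positions. The call of Mrgprg was lost without EWAT replicate 1 (log2 fold change -4.19, edgeR adjusted p = 0.148) or without EWAT replicate 2 (log2 fold change -4.61, edgeR adjusted p = 0.207). The call of H2-Q8 was lost without EWAT replicate 1 (log2 fold change -3.65, edgeR adjusted p = 0.0853) or without EWAT replicate 2 (log2 fold change -5.34, edgeR adjusted p = 0.101). Of the log2 fold changes, that of Mrgprg was -3.43 without NWAT replicate 1.

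**Figure D2:**
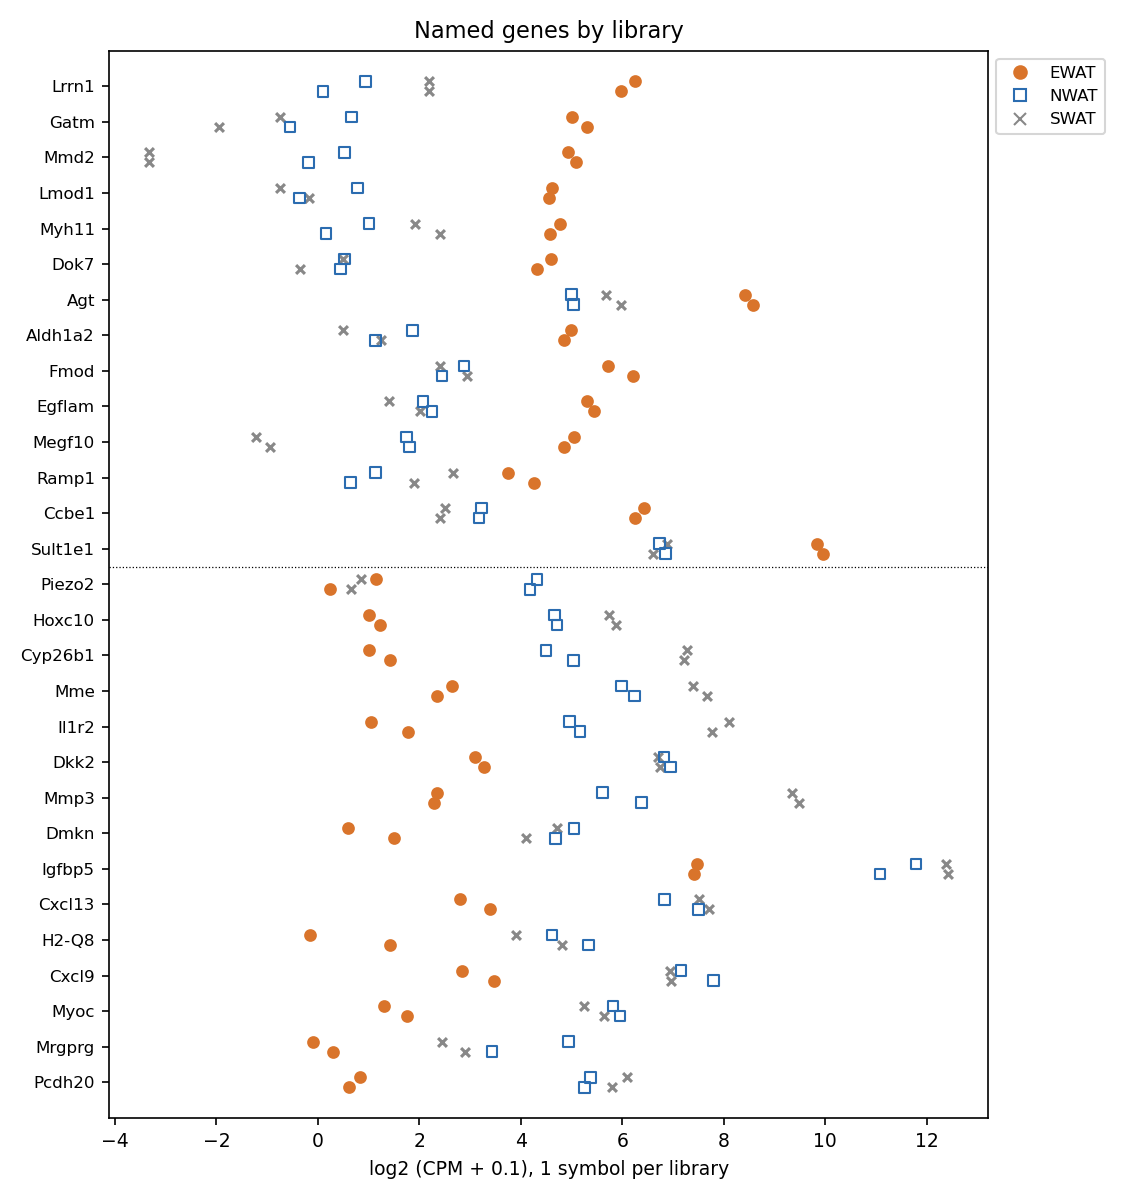
Level of 29 named genes in each library, as log2 (CPM + 0.1) on the horizontal axis, with EWAT as filled circles, NWAT as open squares and SWAT as small grey crosses. The upper 14 genes are higher in EWAT and the lower 15 are lower in EWAT; the rule that chose them required the EWAT and NWAT libraries not to overlap.

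Patterning genes separated the depots along the body axis. The Hox genes, homeobox factors that specify position from head to tail, are numbered from anterior (group 1) to posterior (group 13). Of 21 tested genes of paralogue groups 1 to 8, 16 were higher in EWAT and 0 lower, with a median log2 fold change of 0.68. Of 7 tested genes of groups 9 to 13, 0 were higher and 6 lower, with a median of -3.05. Hoxc11, among the lower, had 0 and 1 counts in EWAT, against 14 and 6 counts in NWAT. It had enough reads to be tested only through SWAT (30 and 30 counts). Hoxb5 had 5.60 and 7.32 CPM in EWAT, against 1.10 and 0.679 CPM in NWAT (2.85 ± 0.32). Hoxa5 had 31.8 and 36.5 CPM in EWAT, against 18.7 and 14.02 CPM in NWAT (1.06 ± 0.17), and Hoxb3 had 20.4 and 20.04 CPM in EWAT, against 10.4 and 7.47 CPM in NWAT (1.18 ± 0.15). The posterior genes went the other way with larger differences. Hoxa10 had 0.654 and 0.719 CPM in EWAT, against 13.9 and 15.8 CPM in NWAT, a log2 fold change of -4.42 ± 0.19 (SE; edgeR adjusted p = 5.58e-08). Hoxc10 had 1.91 and 2.25 CPM in EWAT, against 25.2 and 26.2 CPM in NWAT, with a log2 fold change of -3.62 ± 0.14 (SE; edgeR adjusted p = 3.88e-08). Hoxa9 had 1.03 and 1.44 CPM in EWAT, against 9.88 and 10.6 CPM in NWAT (-3.05 ± 0.20). Within the A cluster, the sign therefore turned between Hoxa7 (0.57 ± 0.15) and Hoxa9, while Hoxa6 (0.21 ± 0.35) and Hoxa2 (-0.046 ± 0.19) did not pass the test. Hoxd9, of the posterior groups, did not pass either (0.36 ± 0.28). The annotated exons of Hoxc10 and Hoxc5 overlap, so reads there cannot be assigned to either with certainty. With 1 library left out, the number of anterior and middle Hox genes higher in EWAT was 10 without EWAT replicate 2 and the number of posterior Hox genes lower in EWAT was 3 without NWAT replicate 1. The call of Hoxa7 was lost without EWAT replicate 2 (log2 fold change 0.48, edgeR adjusted p = 0.0751) or without NWAT replicate 2 (log2 fold change 0.45, edgeR adjusted p = 0.117).

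**Figure D3:**
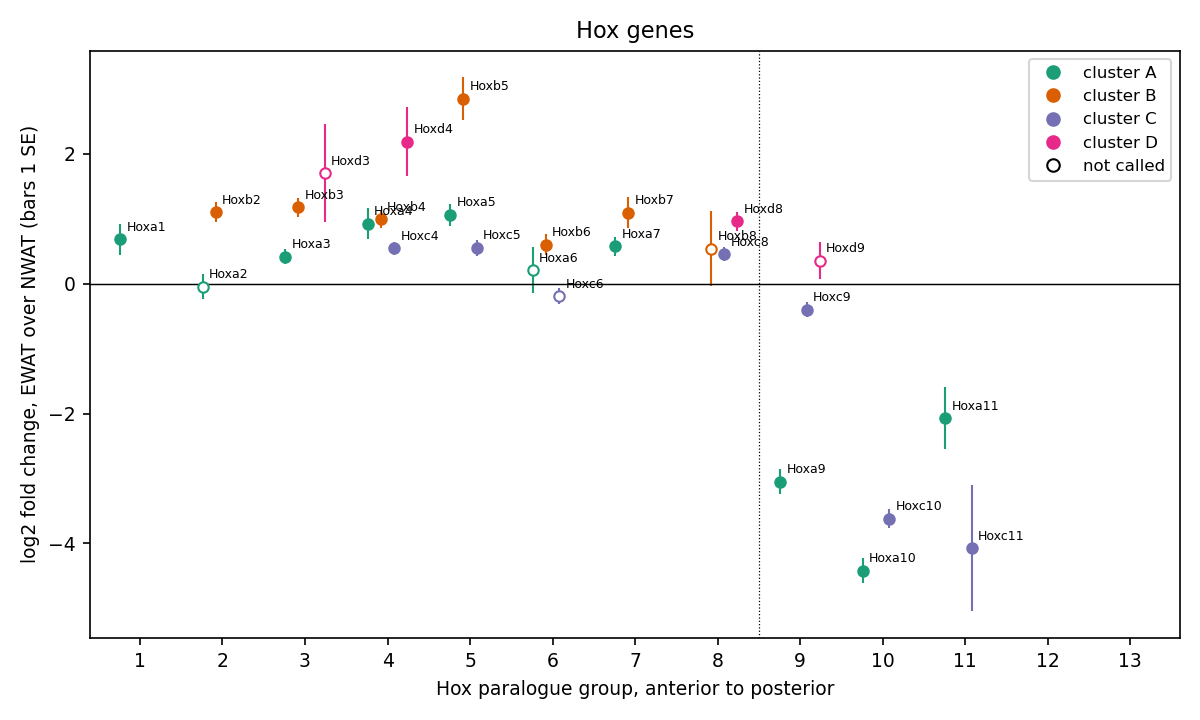
Log2 fold change of EWAT over NWAT for the 28 tested Hox genes (vertical axis) by paralogue group from anterior to posterior (horizontal axis), with bars of 1 SE and colours for the 4 clusters. Filled symbols passed the test; the 16 called genes of groups 1 to 8 lie above 0 and the 6 called genes of groups 9 to 13 lie below it.

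Other regional factors divided by family. Limb and trunk homeobox regulators were more often lower than higher, with 12 of 27 tested members lower in EWAT and 3 higher (median -0.64). Among the lower, Lhx8 had 0 and 0 counts in EWAT, against 8 and 4 counts in NWAT. Lmx1b had 0 and 0 counts in EWAT, against 10 and 6 counts in NWAT. Both had enough reads to be tested only through SWAT. Prrx1, a homeobox factor of limb mesenchyme, had 255 and 215 CPM in EWAT, against 466 and 437 CPM in NWAT (-0.94 ± 0.12). En1, the engrailed factor of trunk and ventral limb, had 2.48 and 2.47 CPM in EWAT, against 20.7 and 17.0 CPM in NWAT (-2.93 ± 0.15). Lmx1a, a LIM homeobox factor, had 1.17 and 1.26 CPM in EWAT, against 9.35 and 8.88 CPM in NWAT (-2.90 ± 0.22). The members higher in EWAT were Alx1 (4.76 ± 0.42), Alx4 (0.66 ± 0.14) and Meis1 (0.37 ± 0.10). Factors of the coelomic and visceral mesenchyme were higher for 6 of 16 and lower for 1, Hlx (-2.47 ± 0.25). Tcf21, a basic helix-loop-helix factor of visceral mesenchyme, had 328 and 401 CPM in EWAT, against 121 and 104 CPM in NWAT (1.70 ± 0.13). Nr2f2, the orphan receptor COUP-TFII, had 68.6 and 64.8 CPM in EWAT, against 25.1 and 25.04 CPM in NWAT (1.41 ± 0.11), and its relative Nr2f1 had 25.97 and 25.9 CPM in EWAT, against 13.2 and 12.2 CPM in NWAT (1.03 ± 0.13). Wt1, the Wilms tumour factor of mesothelium and gonad, had 152 and 161 CPM in EWAT, against 106 and 135 CPM in NWAT and did not pass the test (0.37 ± 0.13), though it did in DESeq2 (adjusted p = 0.0435). Among the T-box factors, 3 of 7 were higher and 2 lower. Tbx1, among the higher, had 4 and 4 counts in EWAT, against 0 and 0 counts in NWAT. It had enough reads to be tested only through SWAT (50 and 45 counts), and so did Tbx5, which was not called. Tbx3 had 18.8 and 18.5 CPM in EWAT, against 3.86 and 5.39 CPM in NWAT (2.01 ± 0.16), whereas Tbx15 had 0.701 and 0.315 CPM in EWAT, against 8.88 and 10.5 CPM in NWAT (-4.25 ± 0.25). On leaving out single libraries, the number of T-box factors lower in EWAT was 1 without EWAT replicate 2 and 1 without NWAT replicate 1. The call of Meis1 was lost without NWAT replicate 1 (log2 fold change 0.36, edgeR adjusted p = 0.119) or without NWAT replicate 2 (log2 fold change 0.38, edgeR adjusted p = 0.0857). Of the log2 fold changes, that of Alx1 was 5.51 without NWAT replicate 1 and that of Tbx15 was -4.92 without EWAT replicate 1.

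Markers of the Dpp4-expressing interstitial progenitor were lower in EWAT almost as a block, with 21 of 22 lower, 0 higher and a median log2 fold change of -1.10. Pi16, a secreted peptidase inhibitor, had 587 and 596 CPM in EWAT, against 3754 and 2973 CPM in NWAT, a log2 fold change of -2.51 ± 0.15 (SE; edgeR adjusted p = 3.62e-07). Dpp4, the surface peptidase that gives the cell its name, had 238 and 227 CPM in EWAT, against 728 and 654 CPM in NWAT, with a log2 fold change of -1.57 ± 0.12 (SE; edgeR adjusted p = 2.52e-06). Smpd3, a neutral sphingomyelinase, had 372 and 301 CPM in EWAT, against 1262 and 1010.3 CPM in NWAT (-1.76 ± 0.15). Every one of these genes had both EWAT libraries below both NWAT libraries, as did 4414 of all 13694 tested genes. Sema3c, a secreted semaphorin, had 292 and 284 CPM in EWAT, against 946 and 850.3 CPM in NWAT (-1.64 ± 0.12), and Anxa3, an annexin, had 205 and 231 CPM in EWAT, against 393 and 347 CPM in NWAT (-0.76 ± 0.13). Also lower were Efhd1 (-1.16 ± 0.14), Dact2 (-1.03 ± 0.15), Limch1 (-1.22 ± 0.16), Creb5 (-1.01 ± 0.11) and Cd55 (-0.51 ± 0.12). Stmn4 did not pass the test (-0.62 ± 0.24). In a bulk sample, fewer cells of a type and less of its RNA per cell cannot be told apart. The call of Cd55 was lost without NWAT replicate 1 (log2 fold change -0.48, edgeR adjusted p = 0.0755).

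The other progenitor lists moved less uniformly. All 15 tested markers of the F3-expressing cell were called, 10 higher and 5 lower, with a median of 0.99. Fmo2, a flavin monooxygenase, had 330.4 and 284 CPM in EWAT, against 59.7 and 53.0 CPM in NWAT (2.44 ± 0.14). Gdf10, a TGF-beta family ligand, had 1007 and 971 CPM in EWAT, against 325 and 328 CPM in NWAT (1.60 ± 0.13), and F3 itself, coagulation tissue factor, had 239 and 239 CPM in EWAT, against 130.3 and 129 CPM in NWAT (0.88 ± 0.17). Against these, Meox2, a mesenchyme homeobox factor, had 2.71 and 3.46 CPM in EWAT, against 14.03 and 13.1 CPM in NWAT (-2.13 ± 0.16), and Igfbp3, Il33, Ces1d and Rtp4 were lower too. Rtp4 and Mgp also belong to other lists described here. Of 18 markers of the committed preadipocyte, 6 were higher and 2 lower (median 0.31). Icam1 (-0.36 ± 0.15), Pparg, the nuclear receptor of adipocyte differentiation (-0.23 ± 0.18), and Lpl (-0.023 ± 0.16) did not pass. Col15a1 (0.75 ± 0.12), Adam12 (1.43 ± 0.12) and Fabp5 (1.77 ± 0.26) rose. General mesenchymal markers were split between 4 higher and 4 lower of 13. Nt5e, the ectonucleotidase CD73, had 89.2 and 90.2 CPM in EWAT, against 18.3 and 13.8 CPM in NWAT (2.48 ± 0.19), while Thy1 (-0.68 ± 0.12) and Pdgfra (-0.45 ± 0.13) were lower. When a library was left out, the number of pan-progenitor and mesenchymal surface markers lower in EWAT was 1 without NWAT replicate 2. The call of F3 was lost without EWAT replicate 1 (log2 fold change 0.88, edgeR adjusted p = 0.0848) or without EWAT replicate 2 (log2 fold change 0.88, edgeR adjusted p = 0.139). The call of Pdgfra was lost without EWAT replicate 2 (log2 fold change -0.30, edgeR adjusted p = 0.139) or without NWAT replicate 1 (log2 fold change -0.46, edgeR adjusted p = 0.1) or without NWAT replicate 2 (log2 fold change -0.44, edgeR adjusted p = 0.108).

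Regulators of fat cell formation were lower for 13 of 30 members and higher for 3. Ebf2, an early B-cell factor of the adipocyte lineage, had 299.5 and 249 CPM in EWAT, against 489 and 436 CPM in NWAT (-0.75 ± 0.13). Ebf3 had 30.1 and 25.9 CPM in EWAT, against 81.8 and 73.4 CPM in NWAT (-1.47 ± 0.11), and Zfp423, a zinc finger factor of preadipocyte commitment, had 14.9 and 16.4 CPM in EWAT, against 30.7 and 28.9 CPM in NWAT (-0.93 ± 0.13). The members that rose were Klf15 (1.35 ± 0.16), Egr2 (0.82 ± 0.15) and Gata2 (1.97 ± 0.21), the last a factor known to hold preadipocytes back. Other factors known for that were lower, namely its relative Gata3 (-3.70 ± 0.56), Dlk1 (-3.49 ± 0.52) and Zfp521 (-0.84 ± 0.10). Gata3 had 3 and 2 counts in EWAT, against 40 and 25 counts in NWAT. Dlk1 had 2 and 4 counts in EWAT, against 40 and 27 counts in NWAT. Both had enough reads to be tested only through NWAT, where they were higher. Cebpa (-0.15 ± 0.10), Cebpb (-0.036 ± 0.12) and Cebpd (0.37 ± 0.14) did not pass. Thermogenic and beige genes were lower for 7 of 15, including Tmem26 (-2.37 ± 0.15), and higher for 2. Lipid handling genes were higher for 8 of 33 and lower for 2. Apoe, the lipoprotein component apolipoprotein E, had 364 and 511 CPM in EWAT, against 100.2 and 91.9 CPM in NWAT (2.19 ± 0.17). G0s2, an inhibitor of triglyceride lipase, had 58.8 and 75.3 CPM in EWAT, against 13.1 and 16.1 CPM in NWAT (2.20 ± 0.14), and Mgll, monoacylglycerol lipase, had 39.2 and 42.3 CPM in EWAT, against 149.7 and 134 CPM in NWAT (-1.80 ± 0.11). Perilipin Plin1 (0.26 ± 0.46) and Adipoq (-0.99 ± 0.60), which mark mature fat cells, did not pass. With 1 library left out, the number of adipogenic transcription factors and regulators lower in EWAT was 8 without EWAT replicate 2, 7 without NWAT replicate 1 and 7 without NWAT replicate 2, the number of thermogenic and beige genes higher in EWAT was 1 without EWAT replicate 1, 1 without EWAT replicate 2, 0 without NWAT replicate 1 and 0 without NWAT replicate 2 and the number of lipid handling genes lower in EWAT was 5 without EWAT replicate 1 and 1 without EWAT replicate 2.

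Interferon-response genes were lower in EWAT as a group. Of 53 tested members of 56 listed, 49 were lower and 0 higher, with a median log2 fold change of -1.16. Interferons act through factors such as Stat2 and Irf9, which bind an interferon-stimulated response element (ISRE) near the start of target genes. To show that element at members of the group, the RefSeq promoter windows of GRCm38.p6, 250 bases before to 50 after each start, were searched on both strands for the core GAAANNGAAA. It was found in 21 of 39 list members with a window (53.8%), against 407 of 10659 tested genes with a window (3.82%), 6.79% of genes lower in EWAT and 2.69% of genes higher in EWAT. Of the 21 genes with the core, 20 were lower in EWAT (median -1.16), and of the 18 without it 16 were lower (median -0.96). A match describes the letters and is not evidence of a bound site.

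The stretches below are read in the direction of transcription, with the core in capitals (on the reverse strand it reads TTTCNNTTTC). They come from an antiviral gene (Ifit1, chr19:34640765-34640833 on the plus strand), a ubiquitin-like modifier (Isg15, chr4:156200855-156200916 on the minus strand), 2 immunity-related GTPases (Irgm1, chr11:48871415-48871470 on the minus strand; Igtp, chr11:58199502-58199551 on the plus strand), a guanylate-binding protein (Gbp3, chr3:142559979-142560034 on the plus strand), the shared light chain of class I histocompatibility molecules (B2m, chr2:122147528-122147577 on the plus strand) and Slfn5 (chr11:82951927-82951976 on the plus strand), a schlafen gene that has the core but was not called.
Ifit1: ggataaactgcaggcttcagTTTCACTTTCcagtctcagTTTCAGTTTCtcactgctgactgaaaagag
Isg15: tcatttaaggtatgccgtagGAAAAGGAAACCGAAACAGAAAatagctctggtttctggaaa
Irgm1: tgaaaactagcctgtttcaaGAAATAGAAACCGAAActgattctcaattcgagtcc
Igtp: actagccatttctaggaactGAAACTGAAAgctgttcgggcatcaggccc
Gbp3: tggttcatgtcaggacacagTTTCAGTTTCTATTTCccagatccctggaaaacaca
B2m: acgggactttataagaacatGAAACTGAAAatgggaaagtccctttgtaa
Slfn5: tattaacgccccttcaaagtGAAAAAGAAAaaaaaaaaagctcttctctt

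The genes with these stretches fell to different extents. Ifit1 had 27.8 and 37.7 CPM in EWAT, against 125 and 227 CPM in NWAT, a log2 fold change of -2.43 ± 0.30 (SE; edgeR adjusted p = 0.00176). Isg15 had 11.4 and 12.7 CPM in EWAT, against 23.3 and 35.7 CPM in NWAT (-1.29 ± 0.20), and Gbp3 had 36.2 and 38.8 CPM in EWAT, against 62.5 and 95.3 CPM in NWAT (-1.07 ± 0.17). In these genes too both EWAT libraries lay below both NWAT libraries, as in 4414 of all 13694 tested genes. B2m had 625 and 770.4 CPM in EWAT, against 1100.2 and 1509 CPM in NWAT (-0.90 ± 0.17), Igtp had 25.5 and 25.2 CPM in EWAT, against 62.9 and 77.7 CPM in NWAT (-1.47 ± 0.12) and Irgm1 had 84.2 and 91.8 CPM in EWAT, against 148 and 187 CPM in NWAT (-0.93 ± 0.13). Slfn5 had 916 and 756 CPM in EWAT, against 1004 and 1107 CPM in NWAT and did not pass (-0.34 ± 0.14), though it did in DESeq2 (adjusted p = 0.0477). The signal carrier Stat2 was lower as well, with 64.2 and 58.1 CPM in EWAT, against 108 and 139 CPM in NWAT (-1.01 ± 0.14), and so was its partner Irf9 (-0.73 ± 0.13). Irf1, a transcription factor of the interferon gamma response, had 363 and 387 CPM in EWAT, against 708 and 1004 CPM in NWAT (-1.19 ± 0.16). Nlrc5, the activator of class I histocompatibility genes, had 2.24 and 2.47 CPM in EWAT, against 19.4 and 24.99 CPM in NWAT (-3.23 ± 0.25), and the peptide transporter gene Tap1 and the immunoproteasome gene Psmb8 fell by less, at -1.07 ± 0.14 and -0.999 ± 0.16. Sensors of viral RNA fell too, with Ifih1 at -0.74 ± 0.10, Ddx58 at -0.74 ± 0.13 and Oas1a at -2.01 ± 0.22. The members that did not pass were Ifit2 (-0.20 ± 0.10), Isg20 (0.064 ± 0.13), Slfn5 and Ifi27l2a (-0.52 ± 0.29). The guanylate-binding, Oas and Irgm families have near-identical members that may share reads, and the annotated exons of Igtp and Irgm2 overlap. The call of Ifit1 was lost without EWAT replicate 1 (log2 fold change -2.22, edgeR adjusted p = 0.0865) or without EWAT replicate 2 (log2 fold change -2.67, edgeR adjusted p = 0.106). The call of Isg15 was lost without EWAT replicate 2 (log2 fold change -1.38, edgeR adjusted p = 0.053). The call of Gbp3 was lost without EWAT replicate 1 (log2 fold change -1.02, edgeR adjusted p = 0.0631) or without EWAT replicate 2 (log2 fold change -1.13, edgeR adjusted p = 0.0777).

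**Figure D4:**
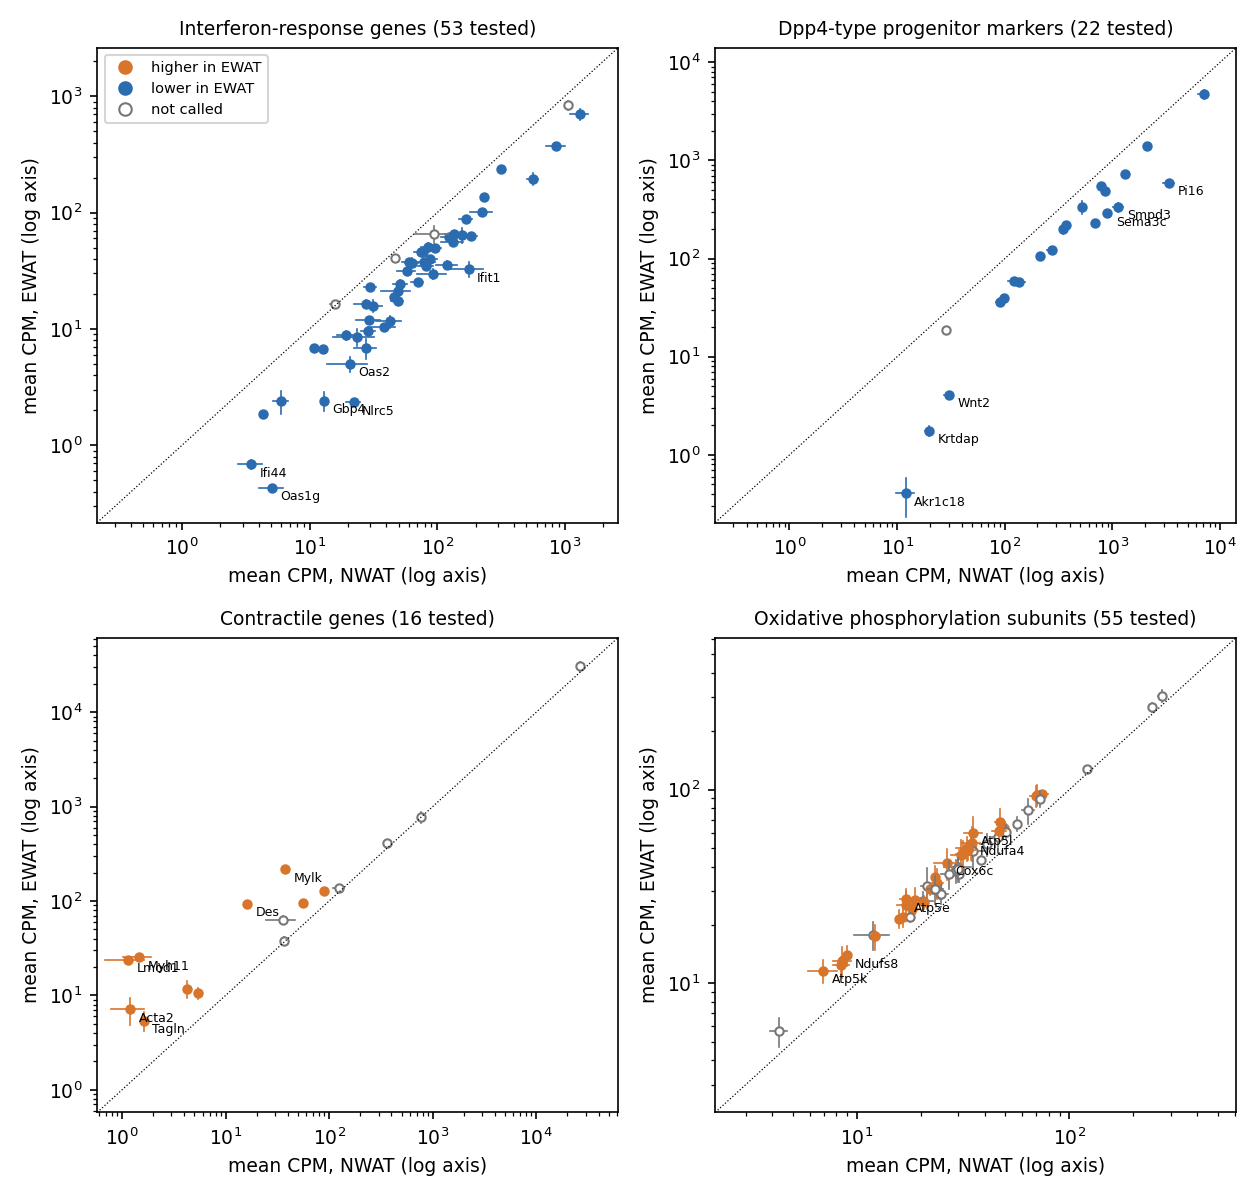
Mean CPM in EWAT (vertical axis) against mean CPM in NWAT (horizontal axis), both on log axes, for the tested members of 4 gene lists. Bars span the 2 libraries of a depot, the diagonal marks equal levels and filled symbols passed the test; 49 of 53 interferon-response genes and 21 of 22 Dpp4-type markers lie below it as calls, while 10 of 16 contractile genes and 31 of 55 oxidative phosphorylation genes lie above it as calls.

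Among chemokine and cytokine genes more were lower than higher, with 19 of 49 lower and 6 higher. Cxcl9, a T-cell attractant induced by interferon gamma, had 7.10 and 10.9 CPM in EWAT, against 142 and 223 CPM in NWAT, a log2 fold change of -4.34 ± 0.27 (SE; edgeR adjusted p = 1.38e-05). Cxcl13, which attracts B cells, had 6.91 and 10.4 CPM in EWAT, against 114 and 181 CPM in NWAT, with a log2 fold change of -4.09 ± 0.28 (SE; edgeR adjusted p = 2.61e-05). Cxcl10 had 35.0 and 52.1 CPM in EWAT, against 225 and 454 CPM in NWAT (-2.96 ± 0.43). Receptors were among the lower genes. Il1r2, the decoy receptor of interleukin-1, had 1.96 and 3.32 CPM in EWAT, against 30.9 and 35.7 CPM in NWAT (-3.65 ± 0.21). Il4ra, the receptor chain for interleukins 4 and 13, had 36.9 and 34.6 CPM in EWAT, against 143 and 191 CPM in NWAT (-2.22 ± 0.14). Il33, an alarmin that stromal cells release to act on innate lymphoid and regulatory T cells, had 22.2 and 31.8 CPM in EWAT, against 76.1 and 60.6 CPM in NWAT (-1.34 ± 0.17). The clearest gene in the other direction was Ackr4, a scavenging receptor of homeostatic chemokines, with 41.3 and 50.2 CPM in EWAT, against 12.6 and 9.17 CPM in NWAT (2.07 ± 0.17). Ccl2 (-0.56 ± 0.33), Il6 (-0.16 ± 0.22) and Csf1 (-0.27 ± 0.12) did not pass. T-cell and NK-cell markers summed to 1.73 and 1.26 CPM in EWAT, against 1.43 and 2.72 CPM in NWAT and B-cell markers to 1.73 and 2.11 CPM in EWAT, against 2.96 and 2.77 CPM in NWAT, with 0 of 3 tested members called in each list and no measured member at 0 in all 4 libraries; their part in these results was not tested. The call of Cxcl10 was lost without EWAT replicate 1 (log2 fold change -2.71, edgeR adjusted p = 0.106) or without EWAT replicate 2 (log2 fold change -3.28, edgeR adjusted p = 0.129). Of the log2 fold changes, that of Cxcl10 was -2.37 without NWAT replicate 2.

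Acute-phase, iron-handling and complement genes were among the abundant transcripts higher in EWAT. Of 24 tested acute-phase and iron genes, 10 were higher and 2 lower (median 0.43). Trf, the iron carrier of plasma, had 2227 and 2407 CPM in EWAT, against 300.2 and 309.7 CPM in NWAT (2.93 ± 0.12). Hp, haptoglobin, had 453 and 451 CPM in EWAT, against 76.9 and 87.6 CPM in NWAT, a log2 fold change of 2.46 ± 0.11 (SE; edgeR adjusted p = 7.31e-08), and Cp, the ferroxidase ceruloplasmin, had 1325 and 1264 CPM in EWAT, against 426 and 472 CPM in NWAT (1.53 ± 0.12). None of these overlapped between depots, and 4557 of all 13694 tested genes likewise had both EWAT libraries above both NWAT libraries. Steap4, a metalloreductase, had 1069 and 1012 CPM in EWAT, against 348 and 410.3 CPM in NWAT (1.46 ± 0.13), and Heph, a second ferroxidase, rose by 0.87 ± 0.13, while the receptor gene Tfrc (-0.17 ± 0.18) and the exporter gene Slc40a1 (0.43 ± 0.18) did not pass. Ptx3, the long pentraxin, went down, with 413 and 501 CPM in EWAT, against 723 and 1076 CPM in NWAT (-0.98 ± 0.18). Of 26 complement genes, 7 were higher and 2 lower. C7, a component of the membrane attack complex, had 1797 and 1651 CPM in EWAT, against 263 and 295 CPM in NWAT, with a log2 fold change of 2.63 ± 0.13 (SE; edgeR adjusted p = 9.50e-08). Vtn, vitronectin, had 60.1 and 64.1 CPM in EWAT, against 14.1 and 16.3 CPM in NWAT (2.03 ± 0.11), while C3 (-0.13 ± 0.12) and Serping1 (0.24 ± 0.13) did not pass. The higher complement genes C1qa and C1qb are also markers of macrophages, whose levels are given with the other cell types. On leaving out single libraries, the number of acute-phase and iron-handling genes lower in EWAT was 1 without EWAT replicate 2, 1 without NWAT replicate 2, 1 without SWAT replicate 1 and 1 without SWAT replicate 2, the number of complement components and regulators higher in EWAT was 4 without NWAT replicate 2 and the number of complement components and regulators lower in EWAT was 1 without NWAT replicate 1.

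Many genes of the contractile apparatus rose in EWAT. Of 16 tested, 10 were higher and 0 lower, with a median of 0.90. Myh11, the smooth muscle myosin heavy chain, had 27.1 and 23.8 CPM in EWAT, against 1.91 and 1.02 CPM in NWAT, a log2 fold change of 4.11 ± 0.24 (SE; edgeR adjusted p = 6.93e-07). Mylk, the kinase that switches smooth muscle myosin on, had 202 and 234 CPM in EWAT, against 36.0 and 39.4 CPM in NWAT, with a log2 fold change of 2.53 ± 0.12 (SE; edgeR adjusted p = 6.61e-08). Des, the intermediate filament protein desmin, had 90.9 and 95.8 CPM in EWAT, against 16.9 and 15.5 CPM in NWAT (2.53 ± 0.13). Lmod1, an actin nucleator, had 24.2 and 23.5 CPM in EWAT, against 1.62 and 0.679 CPM in NWAT (4.36 ± 0.26), and Acta2, smooth muscle actin, had 4.90 and 9.30 CPM in EWAT, against 1.62 and 0.776 CPM in NWAT (2.56 ± 0.43). Broadly used cytoskeletal members did not pass, among them Myl9 (0.028 ± 0.12), Vcl (0.13 ± 0.13) and Flna (0.0033 ± 0.14). The CArG box, the motif of serum response factor, was found on either strand in 3 of 14 list members with a promoter window (21.4%), against 1.52% of all tested genes with one, and those 3 were Cnn2, Myl9 and Vcl, which were not called. Of 11 pericyte and smooth muscle markers, 5 were higher and 1, Cspg4 (-0.83 ± 0.24), was lower. The markers summed to 491 and 461 CPM in EWAT, against 386 and 387 CPM in NWAT, with no listed marker at 0 in all 4 libraries. Most of each sum was Pdgfrb, with 330 and 293 CPM in EWAT, against 333 and 340 CPM in NWAT. Several of those markers are the same contractile genes; among the others, Rgs5 had 7.10 and 7.28 CPM in EWAT, against 3.58 and 2.43 CPM in NWAT (1.26 ± 0.22), while Notch3 (-0.23 ± 0.18), Abcc9 (0.56 ± 0.26) and Pdgfrb (-0.11 ± 0.11) did not pass. Their part in the result was not tested. When a library was left out, the number of pericyte and smooth muscle markers lower in EWAT was 0 without EWAT replicate 2, 0 without NWAT replicate 1 and 0 without NWAT replicate 2. Of the log2 fold changes, that of Lmod1 was 5.12 without NWAT replicate 1 and that of Acta2 was 3.19 without NWAT replicate 1.

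Vasoactive signalling genes were reordered rather than moved in 1 direction, with 7 of 27 higher and 12 lower. Agt, angiotensinogen, the precursor of angiotensin, had 343 and 379 CPM in EWAT, against 31.8 and 32.6 CPM in NWAT, a log2 fold change of 3.49 ± 0.13 (SE; edgeR adjusted p = 3.88e-08). Its main receptor gene Agtr1a went the other way, with 32.7 and 38.0 CPM in EWAT, against 63.0 and 58.5 CPM in NWAT (-0.78 ± 0.11). Npr3, the clearance receptor of natriuretic peptides, had 18.8 and 18.1 CPM in EWAT, against 2.96 and 2.38 CPM in NWAT (2.79 ± 0.17), whereas the signalling receptor gene Npr1 had 204 and 196 CPM in EWAT, against 321 and 307 CPM in NWAT (-0.65 ± 0.10). The endothelin pair was also opposed. Ednra, an endothelin receptor, had 6.91 and 7.37 CPM in EWAT, against 1.53 and 1.80 CPM in NWAT (2.10 ± 0.20), and Edn1, its ligand, had 23.9 and 19.5 CPM in EWAT, against 77.9 and 60.2 CPM in NWAT (-1.67 ± 0.27). Prostaglandin genes went both ways. The cyclooxygenase genes Ptgs1 (-1.29 ± 0.13) and Ptgs2 (-1.21 ± 0.23) were lower, whereas the prostacyclin synthase gene Ptgis (0.68 ± 0.12) and the receptor genes Ptgir (1.04 ± 0.14) and Ptger4 (1.13 ± 0.10) were higher. With 1 library left out, the number of vasoactive signalling genes lower in EWAT was 6 without EWAT replicate 2. The call of Edn1 was lost without EWAT replicate 1 (log2 fold change -1.82, edgeR adjusted p = 0.104) or without EWAT replicate 2 (log2 fold change -1.54, edgeR adjusted p = 0.202). The call of Ptgs2 was lost without EWAT replicate 1 (log2 fold change -1.31, edgeR adjusted p = 0.087) or without EWAT replicate 2 (log2 fold change -1.13, edgeR adjusted p = 0.177).

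Aldh1a1 and Aldh1a2, of retinoic acid synthesis, were higher in EWAT, and Cyp26b1, of its breakdown, was lower. Retinoic acid, made from retinaldehyde by Aldh1a enzymes and removed by Cyp26 enzymes, acts on the nuclear receptors Rara, Rarb and Rarg. Aldh1a1 had 150.01 and 159 CPM in EWAT, against 72.6 and 74.7 CPM in NWAT (1.07 ± 0.10), and Aldh1a2 rose by 3.42 ± 0.23. Cyp26b1 had 1.91 and 2.56 CPM in EWAT, against 22.5 and 32.8 CPM in NWAT, a log2 fold change of -3.62 ± 0.21 (SE; edgeR adjusted p = 9.95e-07). Rarb had 14.4 and 12.8 CPM in EWAT, against 27.6 and 32.5 CPM in NWAT (-1.14 ± 0.15) and Rarg had 88.4 and 83.3 CPM in EWAT, against 153 and 158 CPM in NWAT (-0.86 ± 0.14), while Rara did not pass (0.32 ± 0.12). The annotated exons of Rarb overlap those of Top2b on the other strand, so its reads are uncertain. In all, 4 of 20 members were higher and 4 lower. 

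Steroid-related genes were higher for 7 of 23 listed genes tested and lower for 4. Sult1e1, which inactivates oestrogens by sulfation, had 919.5 and 990.1 CPM in EWAT, against 107 and 115 CPM in NWAT (3.10 ± 0.13). Hsd11b1, which regenerates active glucocorticoid, had 259 and 295 CPM in EWAT, against 90.5 and 103 CPM in NWAT (1.52 ± 0.12), and Cyp1b1, an oestrogen-hydroxylating cytochrome P450, had 708 and 692 CPM in EWAT, against 305 and 282 CPM in NWAT (1.25 ± 0.12). Among the receptor genes, Esr1 and Nr3c1 were lower. Esr1, the oestrogen receptor alpha gene, had 28.2 and 26.8 CPM in EWAT, against 89.8 and 77.2 CPM in NWAT, a log2 fold change of -1.60 ± 0.13 (SE; edgeR adjusted p = 3.81e-06). Nr3c1, the glucocorticoid receptor gene, had 205 and 176 CPM in EWAT, against 284 and 277 CPM in NWAT (-0.56 ± 0.11). The glucocorticoid-induced gene Fkbp5 did not pass (0.30 ± 0.11). 

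Wnt pathway genes were more often lower than higher, with 19 of 38 members lower, 7 higher and a median of -0.47. The lower genes included ligands and secreted antagonists alike. Dkk2, a secreted modulator of Wnt receptors, had 8.4997 and 9.53 CPM in EWAT, against 113 and 123 CPM in NWAT, a log2 fold change of -3.71 ± 0.12 (SE; edgeR adjusted p = 2.33e-08). Sfrp2, a secreted frizzled-related protein, had 109.6 and 133 CPM in EWAT, against 593 and 438 CPM in NWAT (-2.09 ± 0.16), and Sfrp4 had 57.5 and 68.2 CPM in EWAT, against 225 and 185 CPM in NWAT (-1.71 ± 0.13). Wnt10b, a ligand that restrains adipogenesis, had 21.9 and 23.1 CPM in EWAT, against 71.5 and 71.3 CPM in NWAT (-1.67 ± 0.12). Wnt2 (-2.88 ± 0.16), Wnt2b (-2.001 ± 0.24), Wnt11 (-1.24 ± 0.13) and Wnt5a (-0.54 ± 0.11) were lower too. Wnt5b went up, with 22.7 and 26.3 CPM in EWAT, against 10.2 and 6.07 CPM in NWAT (1.59 ± 0.21). Sfrp1 had 429 and 452 CPM in EWAT, against 208 and 215 CPM in NWAT (1.06 ± 0.12), and the Wnt-amplifying R-spondin gene Rspo3 had 30.2 and 33.2 CPM in EWAT, against 10.5 and 9.66 CPM in NWAT (1.65 ± 0.12). The feedback target Axin2 did not pass (-0.044 ± 0.13). 

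In the BMP and TGF-beta pathway, 17 of 50 members were higher and 12 lower. Chrdl1, a BMP antagonist, had 8.59 and 13.4 CPM in EWAT, against 67.5 and 52.2 CPM in NWAT (-2.44 ± 0.22), and Fst, follistatin, had 153 and 154 CPM in EWAT, against 268 and 279.8 CPM in NWAT (-0.83 ± 0.10). Ltbp4, which stores latent TGF-beta on elastic fibres, had 2085 and 1906 CPM in EWAT, against 1045 and 825 CPM in NWAT (1.09 ± 0.14). Bambi, a decoy receptor, had 36.0 and 43.4 CPM in EWAT, against 19.6 and 18.8 CPM in NWAT (1.05 ± 0.12), and the ligand gene Bmp6 rose by 0.67 ± 0.12, with exons that overlap those of Txndc5 on the other strand. Of 23 FGF genes, 9 were higher, including the feedback inhibitor Spry1 with 135 and 130.3 CPM in EWAT, against 54.5 and 57.5 CPM in NWAT (1.24 ± 0.10) and the receptor Fgfr2 with 38.8 and 41.3 CPM in EWAT, against 19.3 and 18.001 CPM in NWAT (1.10 ± 0.11), and 3 were lower, among them the ligand Fgf18 with 17.5 and 21.7 CPM in EWAT, against 43.2 and 54.9 CPM in NWAT (-1.32 ± 0.16). Notch genes were higher for 5 of 16 and lower for 3. Notch4, a receptor known from endothelium, had 33.9 and 27.7 CPM in EWAT, against 5.53 and 4.17 CPM in NWAT (2.66 ± 0.17), while Notch2 had 172 and 139 CPM in EWAT, against 273 and 278 CPM in NWAT (-0.83 ± 0.12). Lfng, a glycosyltransferase that tunes Notch, had 53.1 and 49.6 CPM in EWAT, against 11.1 and 9.22 CPM in NWAT (2.34 ± 0.13), and the target gene Heyl rose by 0.95 ± 0.18. In the Hedgehog pathway the coreceptor genes were opposed, with Boc at 321 and 299 CPM in EWAT, against 152 and 136 CPM in NWAT (1.10 ± 0.11) and Cdon at 425 and 316 CPM in EWAT, against 776 and 785 CPM in NWAT (-1.07 ± 0.15). On leaving out single libraries, the number of BMP and TGF-beta pathway genes higher in EWAT was 10 without NWAT replicate 2.

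The IGF axis showed 5 of 16 members higher and 6 lower. Igf1, insulin-like growth factor 1, had 1064 and 993 CPM in EWAT, against 353 and 389 CPM in NWAT, a log2 fold change of 1.47 ± 0.12 (SE; edgeR adjusted p = 3.31e-06). Among the binding proteins, which hold IGFs in the matrix and in the circulation, Igfbp5 had 178 and 170.0 CPM in EWAT, against 3529.9 and 2160.4 CPM in NWAT, with a log2 fold change of -4.03 ± 0.22 (SE; edgeR adjusted p = 5.81e-07). Igfbp3 had 27.9 and 40.6 CPM in EWAT, against 343 and 275 CPM in NWAT (-3.17 ± 0.18), Igfbp4 had 849 and 941 CPM in EWAT, against 1590.4 and 1632 CPM in NWAT (-0.85 ± 0.13) and Igfbp7 had 1149 and 1237 CPM in EWAT, against 374 and 407 CPM in NWAT (1.61 ± 0.12). Per length, Igfbp5 stood at 31.7 and 31.1 FPKM in EWAT, against 622 and 377 FPKM in NWAT, Igfbp4 at 433 and 493 FPKM in EWAT, against 802 and 815 FPKM in NWAT and Igfbp7 at 1099.7 and 1215 FPKM in EWAT, against 354 and 381 FPKM in NWAT. Of these 3, Igfbp7 had the highest level per length in both EWAT libraries and Igfbp4 in both NWAT libraries. Pappa, a protease that releases IGF from Igfbp4, had 33.3 and 23.5 CPM in EWAT, against 12.3 and 13.1 CPM in NWAT (1.16 ± 0.17), and Igf1r, the receptor gene, had 53.4 and 42.6 CPM in EWAT, against 73.4 and 70.5 CPM in NWAT (-0.58 ± 0.12). 

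Factors for vessels and nerves changed in both directions. Of 29 angiogenic and lymphangiogenic factors, 10 were higher and 9 lower. Vegfc, Ccbe1 and Adamts3, which act in the same step of lymphatic growth, were all higher. Vegfc, the main lymphatic growth factor, had 32.2 and 37.4 CPM in EWAT, against 8.02 and 6.89 CPM in NWAT, a log2 fold change of 2.22 ± 0.13 (SE; edgeR adjusted p = 4.57e-07). Ccbe1, which with the protease Adamts3 activates it, had 86.4 and 75.7 CPM in EWAT, against 9.26 and 8.93 CPM in NWAT, with a log2 fold change of 3.15 ± 0.12 (SE; edgeR adjusted p = 3.88e-08), and Adamts3 had 11.3 and 11.2 CPM in EWAT, against 5.34 and 5.87 CPM in NWAT (1.01 ± 0.16). Vegfa, the main factor for blood vessels, went the other way, with 89.4 and 82.4 CPM in EWAT, against 163 and 171 CPM in NWAT (-0.96 ± 0.11). Angpt1, a ligand that stabilises vessels, had 45.4 and 49.3 CPM in EWAT, against 10.9 and 12.5 CPM in NWAT (2.02 ± 0.11), and Hgf rose by 1.04 ± 0.16. Axon guidance and neurotrophic genes were lower for 14 of 39 and higher for 8. Slit2, a repulsive guidance cue, had 104 and 84.2 CPM in EWAT, against 24.3 and 26.01 CPM in NWAT (1.90 ± 0.14), and its receptor gene Robo1 had 37.0 and 31.6 CPM in EWAT, against 86.4 and 72.0 CPM in NWAT (-1.21 ± 0.12). The secreted semaphorin genes Sema3a (-1.38 ± 0.12), Sema3d (-1.06 ± 0.12) and Sema3e (-0.91 ± 0.14) were lower. When a library was left out, the number of axon guidance and neurotrophic factors higher in EWAT was 4 without NWAT replicate 2.

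Matrix genes divided by family. Of 12 fibrillar and fibril-associated collagen genes, 6 were lower and 0 higher. Col14a1, which coats collagen fibrils, had 1013 and 961 CPM in EWAT, against 2188 and 1811 CPM in NWAT (-1.02 ± 0.13), and Col12a1 had 21.7 and 19.1 CPM in EWAT, against 106 and 90.1 CPM in NWAT (-2.27 ± 0.13). Of the main fibril genes, Col1a1 was lower, with 3760 and 4903 CPM in EWAT, against 6632 and 6010 CPM in NWAT (-0.55 ± 0.15). Col5a1 was lower too (-0.44 ± 0.12). Col3a1 (-0.29 ± 0.12) and Col1a2 (-0.21 ± 0.12) did not pass, though Col3a1 did in DESeq2 (adjusted p = 0.0205). In the collagen VI genes, which form beaded microfibrils, chains that compete for a place in the trimer were opposed. Col6a5 had 2322 and 1909 CPM in EWAT, against 602 and 576 CPM in NWAT (1.84 ± 0.13) and Col6a6 had 636 and 419 CPM in EWAT, against 308 and 282 CPM in NWAT (0.84 ± 0.17), while Col6a3 had 1730.2 and 1455 CPM in EWAT, against 2955 and 2973 CPM in NWAT (-0.90 ± 0.13) and the shared chains Col6a1 (-0.065 ± 0.12) and Col6a2 (-0.018 ± 0.12) did not pass. Basement membrane genes were higher for 11 of 30 and lower for 5. The neighbouring collagen IV chain genes Col4a5 and Col4a6 rose together, Col4a5 with 552 and 479 CPM in EWAT, against 211 and 187 CPM in NWAT (1.37 ± 0.12) and Col4a6 with 106 and 95.8 CPM in EWAT, against 15.8 and 15.04 CPM in NWAT (2.71 ± 0.11), while Col4a1 (0.081 ± 0.13) and Col4a2 (0.27 ± 0.13) did not pass. The chain genes Col4a3 (0.45 ± 0.13) and Col4a4 (0.56 ± 0.11) were higher too, by less. Nid1, which links laminin to collagen IV, had 4994 and 4329 CPM in EWAT, against 7660.5 and 7029 CPM in NWAT (-0.66 ± 0.13), and its relative Nid2 rose by 0.54 ± 0.10. With 1 library left out, the number of fibrillar and fibril-associated collagens lower in EWAT was 3 without NWAT replicate 1.

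Small leucine-rich proteoglycans, which bind and space collagen fibrils, were higher for 6 of 13 and lower for 1. Bgn, biglycan, had 2688 and 2817 CPM in EWAT, against 934 and 980.1 CPM in NWAT (1.52 ± 0.12), Dcn, decorin, had 14964 and 15321 CPM in EWAT, against 8754 and 9646 CPM in NWAT (0.72 ± 0.12) and Fmod, fibromodulin, had 52.2 and 73.9 CPM in EWAT, against 7.25 and 5.34 CPM in NWAT (3.32 ± 0.23). Ogn (0.18 ± 0.12) and Podn (-0.023 ± 0.11) did not pass. Elastic fibre genes were higher for 6 of 22 and lower for 4. Mfap4, a microfibril protein, had 67.3 and 84.9 CPM in EWAT, against 12.7 and 10.04 CPM in NWAT (2.74 ± 0.15), and Eln, elastin, had 772 and 798 CPM in EWAT, against 539 and 499.8 CPM in NWAT (0.60 ± 0.12). Matricellular genes divided 9 higher and 6 lower of 34. Matn2, a filament-forming adaptor, had 281 and 338 CPM in EWAT, against 48.2 and 47.5 CPM in NWAT (2.69 ± 0.13), and Thbs2, an antiangiogenic thrombospondin, had 108 and 95.8 CPM in EWAT, against 359.6 and 354 CPM in NWAT (-1.81 ± 0.12). Matrix proteases and their inhibitors were higher for 15 of 54 and lower for 12. Mmp3, stromelysin, had 5.00 and 4.81 CPM in EWAT, against 48.6 and 83.3 CPM in NWAT (-3.75 ± 0.26), and Adamts16, a secreted metalloprotease, had 65.9 and 67.1 CPM in EWAT, against 267 and 189.7 CPM in NWAT (-1.78 ± 0.17). Adam12, a membrane-bound protease, had 285 and 268 CPM in EWAT, against 103 and 102 CPM in NWAT (1.43 ± 0.12), and Mmp2 (-0.29 ± 0.12) and Mmp14 (-0.017 ± 0.12) did not pass. Adhesion genes were lower for 16 of 40 and higher for 5. Fat4, a giant cadherin, had 30.7 and 20.5 CPM in EWAT, against 133 and 111 CPM in NWAT (-2.25 ± 0.17), and Itga11, a collagen-binding integrin subunit, had 169.5 and 148 CPM in EWAT, against 335 and 353 CPM in NWAT (-1.12 ± 0.11). Pcdh12, a protocadherin known from endothelium, went up, with 20.8 and 15.8 CPM in EWAT, against 2.67 and 2.43 CPM in NWAT (2.84 ± 0.19). On leaving out single libraries, the number of small leucine-rich proteoglycans lower in EWAT was 0 without NWAT replicate 2, the number of elastic fibre and fibulin genes lower in EWAT was 1 without NWAT replicate 1, the number of matricellular proteins lower in EWAT was 3 without NWAT replicate 1 and the number of integrins, cadherins and protocadherins higher in EWAT was 3 without EWAT replicate 1.

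**Figure D5:**
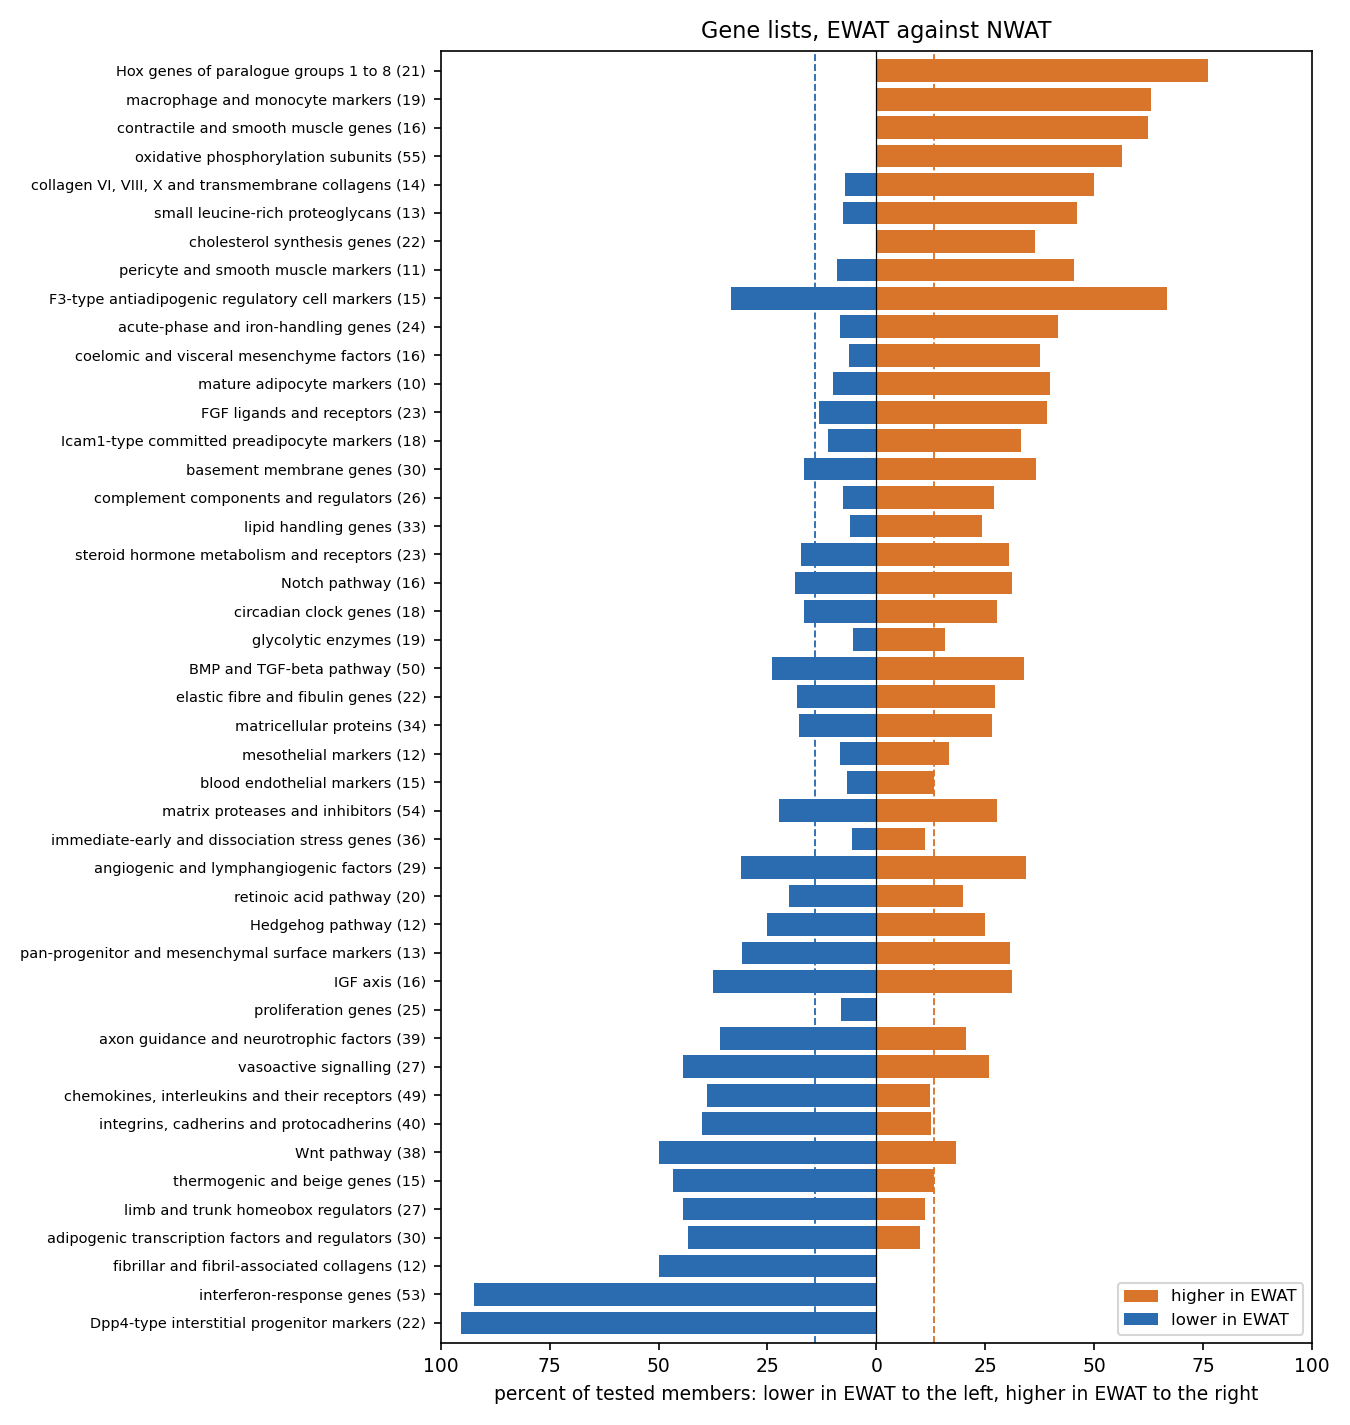
Percent of the tested members of each gene list of 10 or more that were higher in EWAT (bars to the right) and lower in EWAT (bars to the left), with the number tested beside each name. Dashed lines mark the shares over all tested genes, 13.3% higher and 14% lower; interferon-response genes and Dpp4-type markers reach furthest to the left.

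Energy metabolism showed a pattern that rested on single libraries. Of 55 subunit genes of oxidative phosphorylation, 31 were higher and 0 lower, with a median of 0.42. Their summed level was 2554 and 3168 CPM in EWAT, against 2133 and 2361 CPM in NWAT, so the first EWAT library lay closer to the second NWAT library than to the second EWAT library. Cox6c, a cytochrome c oxidase subunit gene, had 34.2 and 49.6 CPM in EWAT, against 23.0 and 30.0 CPM in NWAT (0.66 ± 0.18), and its exons overlap those of Vps13b on the other strand. Of 22 cholesterol synthesis genes, 8 were higher and 0 lower, including Sqle, squalene epoxidase, with 33.5 and 28.4 CPM in EWAT, against 21.1 and 19.8 CPM in NWAT (0.60 ± 0.12). Of 19 glycolytic genes, 3 were higher and 1 lower, beside 13.3% and 14% of all tested genes. Ldhb, a lactate dehydrogenase subunit gene, had 52.9 and 61.6 CPM in EWAT, against 14.2 and 13.97 CPM in NWAT, a log2 fold change of 2.02 ± 0.14 (SE; edgeR adjusted p = 1.04e-06), while its partner Ldha did not pass (0.34 ± 0.12). When a library was left out, the number of oxidative phosphorylation subunits higher in EWAT was 50 without EWAT replicate 1, 3 without EWAT replicate 2, 1 without NWAT replicate 1 and 18 without NWAT replicate 2, the number of cholesterol synthesis genes higher in EWAT was 5 without EWAT replicate 1 and 3 without NWAT replicate 1, the number of cholesterol synthesis genes lower in EWAT was 1 without EWAT replicate 1, the number of glycolytic enzymes higher in EWAT was 5 without EWAT replicate 1 and the number of glycolytic enzymes lower in EWAT was 2 without NWAT replicate 1. The call of Cox6c was lost without EWAT replicate 2 (log2 fold change 0.36, edgeR adjusted p = 0.149) or without NWAT replicate 1 (log2 fold change 0.48, edgeR adjusted p = 0.171).

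Signs of handling and of timing were examined in the same way. Immediate-early and dissociation stress genes, which respond within minutes to tissue digestion, were higher for 4 of 36 and lower for 2, with a median of -0.047. Of all tested genes, 13.3% were higher and 14% lower. Fos had 4854 and 4229.5 CPM in EWAT, against 4977 and 4112 CPM in NWAT (-0.00089 ± 0.15) and Jun had 2858 and 2847 CPM in EWAT, against 2963 and 2672 CPM in NWAT (0.018 ± 0.12), and neither passed. The members that passed were Hspa1b (1.09 ± 0.21), Egr2 (0.82 ± 0.15), Btg2 (0.50 ± 0.13) and Mt1 (0.43 ± 0.12), which were higher in EWAT, and Ier5 (-0.81 ± 0.11) and Fosl1 (-2.17 ± 0.26), which were lower, and their part in the other results was not tested. Of 25 proliferation genes, 0 were higher and 2 lower. Of 18 clock genes, 5 were higher and 3 lower. Dbp, a clock output factor, had 6.21 and 7.64 CPM in EWAT, against 1.96 and 1.70 CPM in NWAT (1.92 ± 0.25), and the related factor Tef had 60.2 and 63.0 CPM in EWAT, against 33.7 and 33.0 CPM in NWAT (0.88 ± 0.10), while Arntl (-0.28 ± 0.11) and Per2 (-0.20 ± 0.25) did not pass. The exons of Dbp overlap those of Sphk2 on the other strand. The time of collection is not given in the sources used here, and its part in the result was not tested. With 1 library left out, the number of immediate-early and dissociation stress genes higher in EWAT was 2 without EWAT replicate 2 and 2 without NWAT replicate 2, the number of immediate-early and dissociation stress genes lower in EWAT was 5 without EWAT replicate 1, the number of proliferation genes higher in EWAT was 8 without EWAT replicate 1, the number of proliferation genes lower in EWAT was 1 without EWAT replicate 1, 0 without NWAT replicate 1, 1 without NWAT replicate 2, 1 without SWAT replicate 1 and 1 without SWAT replicate 2 and the number of circadian clock genes lower in EWAT was 1 without EWAT replicate 2, 1 without NWAT replicate 1, 0 without NWAT replicate 2, 1 without SWAT replicate 1 and 1 without SWAT replicate 2. The call of Hspa1b was lost without EWAT replicate 1 (log2 fold change 1.03, edgeR adjusted p = 0.153) or without EWAT replicate 2 (log2 fold change 1.15, edgeR adjusted p = 0.19). The call of Btg2 was lost without NWAT replicate 2 (log2 fold change 0.41, edgeR adjusted p = 0.119). The call of Mt1 was lost without EWAT replicate 2 (log2 fold change 0.31, edgeR adjusted p = 0.102) or without NWAT replicate 1 (log2 fold change 0.38, edgeR adjusted p = 0.155) or without NWAT replicate 2 (log2 fold change 0.49, edgeR adjusted p = 0.0625).

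Markers of other cell types were measured beside these groups, and some moved with the depot. Macrophage and monocyte markers were higher for 12 of 19 and lower for 0, with summed levels of 69.0 and 69.6 CPM in EWAT, against 40.0 and 34.2 CPM in NWAT and no listed marker at 0 in all 4 libraries. Lyz2, a lysozyme gene of myeloid cells, had 8.97 and 8.04 CPM in EWAT, against 2.77 and 1.60 CPM in NWAT (1.96 ± 0.28), and Csf1r had 2.80 and 3.24 CPM in EWAT, against 1.24 and 0.922 CPM in NWAT (1.48 ± 0.29), with exons that overlap those of Hmgxb3. Mesothelial markers summed to 288 and 309 CPM in EWAT, against 207 and 241 CPM in NWAT, with 2 of 12 higher and 1 lower, and the defining markers Msln (0.73 ± 0.41) and Upk3b (0.75 ± 0.26) did not pass. Most of each sum was Wt1, with 152 and 161 CPM in EWAT, against 106 and 135 CPM in NWAT. The higher markers were Rspo1 (1.04 ± 0.10) and Ezr (0.60 ± 0.10), and the lower one was Krt19 (-3.14 ± 0.26). Cdh5, a blood endothelial marker, had 4.16 and 4.99 CPM in EWAT, against 3.24 and 3.93 CPM in NWAT (0.35 ± 0.20, not passed). Blood endothelial markers were higher for 2 of 15 and lower for 1, beside 13.3% and 14% of all tested genes. The lower one was Tek, which is also in the Dpp4-type list, with 219 and 178 CPM in EWAT, against 355 and 334 CPM in NWAT (-0.80 ± 0.13). Schwann and neuronal markers were lower for 3 of 9 and higher for 1, with summed levels of 49.1 and 57.5 CPM in EWAT, against 101.1 and 87.0 CPM in NWAT, of the listed markers Elavl4 being at 0 in all 4 libraries. Mbp, myelin basic protein, had 4.34 and 4.49 CPM in EWAT, against 17.7 and 13.9 CPM in NWAT (-1.83 ± 0.15). Mature adipocyte markers were higher for 4 of 10 and lower for 1, and summed to 182 and 165 CPM in EWAT, against 182 and 182 CPM in NWAT. Most of each sum was Fasn, with 148 and 124 CPM in EWAT, against 158 and 158 CPM in NWAT, which did not pass (-0.21 ± 0.11). The higher markers Lipe, Dgat2, Cfd and Pck1 and the lower marker Nnat made up little of it. Of 14 listed kidney markers 4 could be tested. The water channel genes Aqp2, with 27 and 43 counts in EWAT, against 0 and 1 counts in NWAT, and Aqp1, with 12.9 and 16.4 CPM in EWAT, against 6.39 and 7.67 CPM in NWAT (1.06 ± 0.18), were higher in EWAT, while Cubn (-0.64 ± 0.54) and Nphs1 (-1.04 ± 0.39) did not pass. Of 18 listed epididymis and testis markers 3 could be tested. Sox9, which mesenchymal cells also express, had 91.0 and 95.3 CPM in EWAT, against 32.7 and 33.6 CPM in NWAT (1.49 ± 0.10), while Amh (-0.48 ± 0.55) and Rnase10 (-0.76 ± 0.31) did not pass. Adrenal markers were higher for 3 of 4 and lower for 0. Star, the cholesterol importer of steroid-making cells, had 18.4 and 19.9 CPM in EWAT, against 9.78 and 6.70 CPM in NWAT (1.21 ± 0.18), and Nr5a1, the steroidogenic factor SF-1 (20 and 21 counts in EWAT, against 4 and 0 counts in NWAT; edgeR adjusted p = 0.0613 without NWAT replicate 2), and Mc2r (2.21 ± 0.47), the corticotropin receptor, were higher at low levels, while the adrenal enzyme gene Cyp21a1 did not pass (-0.33 ± 0.23). The part of these cells in the other results was not tested. On leaving out single libraries, the number of macrophage and monocyte markers higher in EWAT was 6 without NWAT replicate 2, the number of blood endothelial markers higher in EWAT was 0 without EWAT replicate 2, 0 without NWAT replicate 1 and 1 without NWAT replicate 2, the number of Schwann and neuronal markers higher in EWAT was 0 without EWAT replicate 2, 0 without NWAT replicate 1, 0 without SWAT replicate 1 and 0 without SWAT replicate 2, the number of mature adipocyte markers higher in EWAT was 2 without EWAT replicate 2, 2 without NWAT replicate 1 and 2 without NWAT replicate 2 and the number of mature adipocyte markers lower in EWAT was 2 without EWAT replicate 1 and 2 without EWAT replicate 2. The call of Mc2r was lost without NWAT replicate 1 (log2 fold change 1.79, edgeR adjusted p = 0.0542). Of the log2 fold changes, that of Mc2r was 2.80 without NWAT replicate 2.

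Subcutaneous cells gave another level beside the pair. Of the 1826 genes higher in EWAT, the SWAT mean lay between the EWAT and NWAT means for 868 (47.5%), beyond NWAT for 798 (43.7%) and beyond EWAT for 160 (8.76%). Of the 1917 genes lower in EWAT, it lay between for 1059 (55.2%), beyond NWAT for 645 (33.6%) and beyond EWAT for 213 (11.1%). Since SWAT also helped to set the spread, these counts are a description. The correlation of log2 CPM over genes was 0.924 to 0.934 between EWAT and SWAT libraries and 0.961 to 0.963 between NWAT and SWAT libraries. Among genes named here, Igfbp5 had 5309 and 5482 CPM in SWAT, above EWAT and NWAT, and Tcf21 had 0.165 and 0.105 CPM, below both. Angpt1 had 58.5 and 57.0 CPM in SWAT, above EWAT, and Cxcl2, a neutrophil attractant, had 9.87 and 6.43 CPM, near EWAT, which had lower levels than NWAT (7.43 and 8.36 CPM in EWAT, against 27.8 and 47.0 CPM in NWAT; -2.24 ± 0.28). Pi16 had 2056 and 1804 CPM in SWAT, between EWAT and NWAT. The call of Cxcl2 was lost without EWAT replicate 1 (log2 fold change -2.16, edgeR adjusted p = 0.0646) or without EWAT replicate 2 (log2 fold change -2.34, edgeR adjusted p = 0.0914).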

How the data were processed

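RNA of adipose-derived stem cells was sequenced in bulk; the labels list 8 samples of 4 fat depots, and 6 libraries of 3 depots were analysed. The 2 mesenteric (MWAT) samples were not analysed here, because no column name matched their labels. Per the file headers, the authors deposited gene-level estimated counts, which need not be whole, and FPKM values, which are scaled to gene length and depth. The submitters' processing notes name GRCm38.p6, Cell Ranger and Seurat without versions or roles; the aligner, counter, annotation, strandedness and sorting markers were not found in the sources used here. Among the columns of either table, 2 matched no sample label and were not used.

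Estimated counts were rounded to whole numbers and tested with edgeR 4.0.16 (R 4.3.3): TMM scaling, genes kept by filterByExpr (at least 10 counts in enough libraries, at least 15 in all), a robust quasi-likelihood fit with 1 coefficient per depot over 6 libraries, the contrast EWAT minus NWAT, and Benjamini-Hochberg adjustment over 13694 genes. Dividing a log2 fold change by the root of its F gave the SE. Library totals were 20026413 to 20638724. Alternatives were DESeq2 1.42.0, its size factors, other count filters, EWAT and NWAT alone, a replicate block, limma 3.58.1 on log2 (FPKM + 1) or (FPKM + 0.1), and leaving out each library. The fit was tested on simulated counts.

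The 15 genes named in each direction had a mean log2 CPM of at least 2, both EWAT libraries beyond both NWAT libraries, and the largest log2 fold change among called genes; 1 of them is not reported here. Within lists, members with large changes and defining members were named. The comparison, gene lists and motifs were chosen with earlier results of these data known. Lists are described by counts and medians, with no test of a list. Of 17967 symbols 17503 matched RefSeq, whose promoter windows ran from 250 bases before to 50 after each start.

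Because strandedness is not given, reads in exons shared with a neighbour cannot be assigned with certainty. By GENCODE exons on GRCm38 this touches Ackr4, Bmp6, Cebpb, Cebpd, Col4a1, Col4a2, Cox6c, Cp, Csf1r, Cxcl10, Dbp, Fgfr2, Fosl1, Heph, Hoxc5, Hoxc10, Igfbp7, Igtp, Irf9, Matn2, Mest, Mfap4, Myoc, Nid2, Nmb, Ptger4, Rarb, Smpd3, Tap1 and Vcl.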

Additional observations from a re-analysis of the deposited data

How the results depend on the processing

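Leaving out 1 library moved the counts most: 974 to 2395 genes were higher in EWAT, against 1826 with all libraries, and 1166 to 2495 were lower, against 1917. The lone library left in a depot was then assumed to vary like the others. DESeq2 gave 1425 higher and 1702 lower genes, its size factors in edgeR 1818 and 1939, no count filter 1914 and 1995, a stricter filter 1757 and 1926, and EWAT and NWAT alone 1567 and 1735. In limma on FPKM the split turned towards EWAT, with 2036 higher and 1468 lower at a pseudocount of 1, 2051 and 1498 at 0.1, and 1920 and 1341 with a mean FPKM of at least 1; the median of all genes moved by 0.041. No gene called both here and under an alternative changed direction. With the replicate number as a block, 1857 genes were higher and 1936 lower, and 3622 of the 3743 calls were shared. The numbers mark only 2 libraries a depot, and same-numbered EWAT and NWAT libraries deviated together with a correlation of 0.11 over genes, so no pairing was taken from them.

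For 305 genes followed across 15 alternatives, 4451 values kept direction and side of the threshold, 47 lost the call, 53 gained it and 1 reversed, that of Hba-a2, whose log2 fold change ran from -3.54 without NWAT replicate 1 to 2.41 without NWAT replicate 2; the cause was not tested. With 2 libraries a depot, small differences and genes of a few counts are the least certain, and counting intervals cover counting error only.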

Other observations

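Several secreted peptides, receptors and other proteins outside the gene lists also separated the depots, and they are named here because of their values. Penk, the precursor of enkephalin opioids, had 1182 and 1296 CPM in EWAT, against 388 and 391 CPM in NWAT (1.67 ± 0.12), and Nmb, the precursor of neuromedin B, had 54.7 and 68.2 CPM in EWAT, against 9.26 and 9.02 CPM in NWAT (2.75 ± 0.14). Both EWAT libraries lay above both NWAT libraries for each, as for 4557 of all 13694 tested genes. The receptor gene S1pr3, for sphingosine 1-phosphate, had 349.9 and 315 CPM in EWAT, against 104 and 100.8 CPM in NWAT (1.70 ± 0.11). Avpr1a, the vasopressin receptor of vascular smooth muscle, had 109 and 114 CPM in EWAT, against 32.9 and 23.7 CPM in NWAT (1.98 ± 0.15), and F2r, a thrombin receptor, had 41.2 and 37.4 CPM in EWAT, against 6.82 and 6.16 CPM in NWAT (2.60 ± 0.16). Psat1, an enzyme of serine synthesis, had 127 and 144 CPM in EWAT, against 22.9 and 24.2 CPM in NWAT (2.53 ± 0.11). Of the matrix proteins outside the lists, Cilp had 609 and 557 CPM in EWAT, against 126 and 142 CPM in NWAT (2.12 ± 0.12). In the other direction, Anpep, the surface aminopeptidase CD13, had 169.9 and 186 CPM in EWAT, against 527 and 493 CPM in NWAT (-1.52 ± 0.11), the ion channel genes Kcnk5 and Hcn4 differed by -2.12 ± 0.15 and -2.68 ± 0.25 on the log2 scale, and Eya4, a transcriptional coactivator, had 7.61 and 6.43 CPM in EWAT, against 45.7 and 44.6 CPM in NWAT (-2.68 ± 0.14). Cd274, the checkpoint ligand PD-L1 that interferon gamma induces, had 12.0 and 11.1 CPM in EWAT, against 30.9 and 39.3 CPM in NWAT (-1.61 ± 0.13). 

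Imprinted genes, which are expressed mainly from 1 parental copy, were looked up after Plagl1 and Cdkn1c had been seen among the lower genes, so the counts are a description. Of 47 textbook imprinted genes 32 could be tested; 6 were higher in EWAT and 11 lower, beside 13.3% and 14% of all tested genes, with a median log2 fold change of -0.32. Plagl1, a zinc finger regulator of other imprinted genes, had 18.4 and 17.3 CPM in EWAT, against 98.2 and 111 CPM in NWAT (-2.55 ± 0.11). Cdkn1c, an inhibitor of the cell cycle, had 36.9 and 35.3 CPM in EWAT, against 119 and 106 CPM in NWAT (-1.64 ± 0.11), Grb10, an adaptor that restrains insulin signalling, had 195 and 184 CPM in EWAT, against 403 and 395 CPM in NWAT (-1.07 ± 0.12) and Mest had 42.5 and 49.96 CPM in EWAT, against 84.4 and 94.6 CPM in NWAT (-0.95 ± 0.11). For these genes neither EWAT library reached an NWAT library, as for 4414 of all 13694 tested genes. Peg3 (-1.16 ± 0.16), the amino acid transporter gene Slc38a4 (-2.90 ± 0.15) and Dlk1, an inhibitor of adipogenesis (-3.49 ± 0.52), were lower too. Dlk1 had 2 and 4 counts in EWAT, against 40 and 27 counts in NWAT, and had enough reads to be tested only through NWAT. Dio3, the deiodinase that inactivates thyroid hormone, went the other way, with 9.25 and 9.66 CPM in EWAT, against 1.72 and 1.12 CPM in NWAT (2.73 ± 0.24), and Ndn (0.015 ± 0.11), Sgce (-0.016 ± 0.11) and Gnas (0.036 ± 0.12) did not pass.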
